A study of Homo sapiens with 6 samples.

Results

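The genes described here encode enzymes of fatty acid oxidation and of ketone body metabolism, together with targets of the peroxisome proliferator-activated receptors (PPARs). The 43 members were listed by name, from the acyl-CoA synthetases that activate fatty acids to the thiolases that end each round of oxidation. They stand among 19775 genes that the array annotation names through probe sets with a single gene symbol. Gene expression was measured in Caco2, a human colon cancer line that can take on features of enterocytes, on 6 Affymetrix HG U133 Plus 2.0 arrays. RNA of cells resistant to 10 µM methotrexate (MTX), an antifolate drug, was hybridised to 3 of them, and RNA of the parental cells, which are sensitive to MTX, to the other 3. The resistant cells had been selected with stepwise concentrations of MTX. Their medium contained no thymidine, glycine or hypoxanthine and its serum was dialyzed, whereas parental cells grew in Ham's F12 medium. The effect of the medium and the effect of resistance therefore cannot be told apart. Whether the resistant line is 1 clone or a mixed population is not given in the sources used here, nor whether the arrays within each group stem from separate cultures. The p-values thus set the difference between the groups against the spread among arrays within them, which may be only technical.

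In mitochondria, long-chain fatty acids enter as carnitine esters and are shortened by repeated cycles of dehydrogenation, hydration, a second dehydrogenation and thiolysis. Electrons of the first step pass through electron transfer flavoprotein and its dehydrogenase to the respiratory chain. Peroxisomes run a similar cycle on very long and branched chains, in which an oxidase replaces the first dehydrogenase. Acetyl-CoA from oxidation can be turned into ketone bodies, and colon epithelium is known for oxidising short-chain fatty acids. PPARs bind as partners of RXR to response elements near many of these genes.

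Each value below is the signal of a probe set divided by the median signal of its array, and a gene is represented by its brightest probe set. Changes are log2 ratios of resistant over parental cells, given ± SE (n = 3 arrays in each group). Adjusted p-values come from limma over the 26563 probe sets bright enough to be tested. The SE is the moderated one of limma, which draws a gene's own variance toward an intensity trend over these probe sets. A gene's own arrays alone can give a larger SE (FABP5, 0.63 in place of 0.41) or a smaller one (ACAT1, 0.09 in place of 0.13). Rose and fell are used only at an adjusted p under 0.05. The number of arrays limits the precision. Across these probe sets the correlation r was 0.968 to 0.971 within the resistant group. Parental array 3 stood apart, with r of 0.946 and 0.949 to its own group and 0.935 to 0.939 to resistant arrays, where parental arrays 1 and 2 gave 0.914 to 0.929 to resistant arrays and 0.966 to each other. Of the listed intestinal epithelial markers, VIL1, KRT8, KRT18, KRT20 and LGALS4 rose among 8 tested (CDH1 gave -0.21, EPCAM 0.12 and KRT19 0.57), and the sum over the 14 markers was 2606 to 2734 array medians on resistant arrays, against 1680 to 2165 on parental arrays. Of 8 fibroblast markers 3 were tested (sum of the list 9.70 to 10.7 on resistant arrays, against 6.72 to 7.44 on parental arrays). LUM had 3.27, 2.92 and 1.504 on resistant arrays, against 0.198, 0.352 and 0.265 on parental arrays (adjusted p = 0.00717), so that it passed the filter only through the resistant arrays, and COL1A1 gave -0.15 and THY1 0.18. Of 4 adipocyte markers CIDEC was tested and had 2.198, 2.11 and 2.03 on resistant arrays, against 1.44, 1.08 and 0.991 on parental arrays (0.87 ± 0.30, adjusted p = 0.0942), while ADIPOQ, PLIN1 and LEP were below the filter. Of the leukocyte markers LAPTM5 fell (-0.91, adjusted p = 0.0468), and CD14 (-0.13) and CD53 (-0.25) did not pass the test. The list summed to 10.4 to 13.8 on resistant arrays, against 12.4 to 23.8 on parental arrays. The part of these markers in the results below was not tested, and RNA from another share of cells and a change within cells cannot be told apart in such bulk samples. The enterocyte markers CDX1, CDX2, SI, ALPI, FABP1 and FABP2 had means below the array median.

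Of the 43 members, 34 were tested. For CPT1B, ACSL3, ACOT1 and ACOT2 no probe set with a single symbol was at hand (ACOT1 and ACOT2 share 1 probe set), and ACADL, ACOX2, OXCT1, ANGPTL4 and CD36 had a mean below the array median. In MTX-resistant cells 7 of the 34 members rose and 0 fell (14 and 4 at an unadjusted p below 0.05 in limma, and 0 and 0 by the methods' t-test after adjustment, with 9 and 3 before it). The test named after the methods was run here without the study's filter on precision (control strength), so it does not repeat the study's analysis. It called 1.01% of all tested genes higher and 0.608% lower. In limma the 7 risen members, or 20.6%, compare with 7.37% of 11849 tested genes that rose and 5.05% that fell. The risen genes were the acyl-CoA dehydrogenase ACADVL, the electron transfer genes ETFB and ETFDH, the isomerase ECI2, the ketone body enzymes ACAT1 and BDH1 and the fatty acid binding protein FABP5. The median change was 0.28 over the tested members and 0.02 over all tested genes, and 26 of the 34 changes were above 0 (76.5%, against 51.5% of all tested genes). Resistant arrays lay above all parental arrays for 13 members (38.2%, against 20.2% of all tested genes) and below them for 4 (15.2% of all tested genes). ETFB, ECI2, BDH1 and FABP5 rose at least 2-fold, as did 3.37% of all tested genes, while 2.17% fell that far.

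The count depended on parental array 3. On that array 25 of the 34 members exceeded their mean over the other parental arrays (46.5% of all tested genes did), and the median difference was 0.27 for the members and -0.04 for all tested genes. Without it 15 of 32 tested members rose and 1 fell, and 17% of all tested genes rose and 15.2% fell. When parental array 1 or 2 was left out, 3 and 4 members rose (and 0 and 1 fell), beside 4.19% and 4.61% of all tested genes that rose. Without resistant array 1, 2 or 3, 2 members rose each time, beside 2.34%, 2.64% and 2.24% of all tested genes. Those 2 were ACADVL and ACAT1, which passed the test with each of the 6 arrays left out. For several single genes below, a value is also given without 1 array, mostly parental array 3. Where that array lay nearest to the other group, leaving it out widens the change by construction, so the call is no support. Calls without parental array 3 stand beside the 17% of all tested genes that rose and the 15.2% that fell in that setting.

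**Figure D1:**
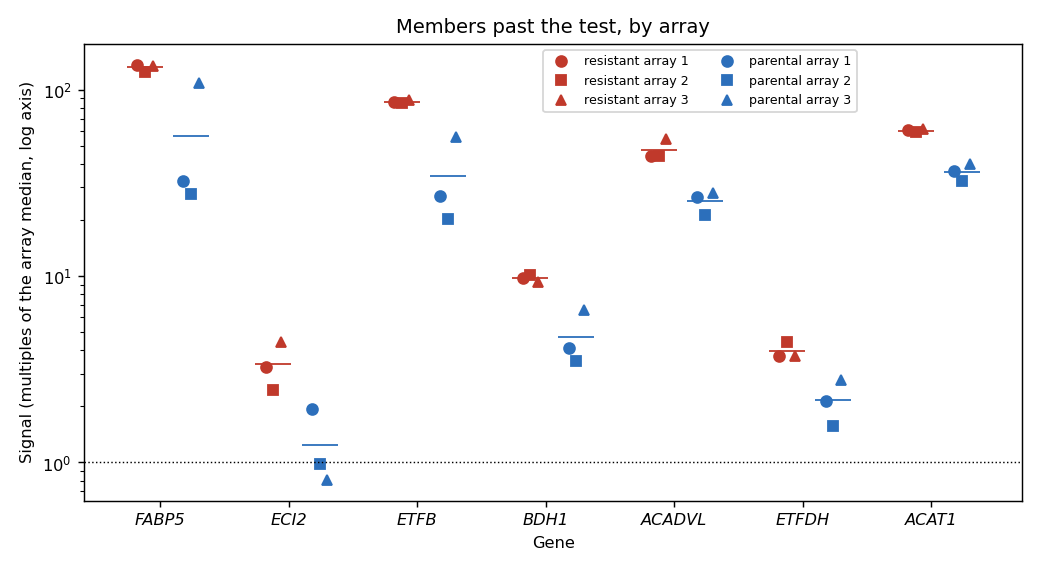
Signal of the 7 risen members on each of the 6 arrays, as multiples of the array median on a log axis, with resistant arrays in red, parental arrays in blue, a marker shape for each replicate number and bars at group means. The resistant markers lie above the parental markers for each gene, and for FABP5 parental array 3 (108.8) stands near the resistant arrays (125.0 to 136.1).

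Promoter windows are shown for 3 of the risen genes, because ACADVL and ACAT1 kept their calls with each array left out and ETFB had the largest change among the mitochondrial enzymes. The windows run from 250 bases before to 50 bases after a transcription start in RefSeq (GRCh38.p14), and a gene can have several starts. ACADVL is taken from chr17:7219688-7219987 (plus strand), ACAT1 from chr11:108121317-108121616 (plus strand) and ETFB from chr19:51366339-51366638 (minus strand). Capitals mark matches on either strand to GGGCGG, the GC box bound by SP1-type factors, and to TGACNNNGC, the core of antioxidant response elements. Each of these genes has another window that is not shown, and the one shown has more matches. Neither motif was found in the other windows of ACADVL and ACAT1, and that of ETFB held GGGCGG but not TGACNNNGC.
ACADVL: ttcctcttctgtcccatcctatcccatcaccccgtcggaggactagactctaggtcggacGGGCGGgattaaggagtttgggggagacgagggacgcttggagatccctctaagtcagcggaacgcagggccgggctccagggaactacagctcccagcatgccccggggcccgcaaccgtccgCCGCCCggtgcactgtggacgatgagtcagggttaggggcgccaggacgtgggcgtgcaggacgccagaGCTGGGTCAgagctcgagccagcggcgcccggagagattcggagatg
ACAT1: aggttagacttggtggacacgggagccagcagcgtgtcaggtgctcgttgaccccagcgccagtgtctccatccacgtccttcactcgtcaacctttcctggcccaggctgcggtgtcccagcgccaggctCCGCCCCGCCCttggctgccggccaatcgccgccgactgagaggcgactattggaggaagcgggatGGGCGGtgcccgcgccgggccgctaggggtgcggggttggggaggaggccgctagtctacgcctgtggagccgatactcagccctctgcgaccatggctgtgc
ETFB: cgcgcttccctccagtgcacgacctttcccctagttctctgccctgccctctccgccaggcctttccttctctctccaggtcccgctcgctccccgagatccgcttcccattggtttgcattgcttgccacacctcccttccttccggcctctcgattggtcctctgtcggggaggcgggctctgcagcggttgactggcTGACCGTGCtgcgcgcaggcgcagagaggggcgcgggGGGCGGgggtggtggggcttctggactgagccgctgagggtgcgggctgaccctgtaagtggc
The direct repeat of PPAR response elements, which is AGGTCA written 2 times with 1 base between the copies, and the single AGGTCA that it contains were searched on both strands. In the 52 windows of the 33 members that the table holds, the repeat was found in 0 (0.0228% of 35116 windows in all) and AGGTCA in 1, of the synthetase gene ACSL5 (13.8% of all windows). TGACNNNGC was found in 7 member windows (13.5%, against 13.3% of all windows), 2 of them among the 10 windows of risen members, those shown for ACADVL and ETFB. GGGCGG was found in 30 (57.7%, against 45% of all windows), including windows of ACADVL, ACAT1, ETFB, ECI2 and BDH1. A match is a description of letters only. The table has no window for ETFDH, and none is shown for FABP5.

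The first steps of the pathway activate fatty acids and carry them into mitochondria. Of the 7 tested genes of these steps 0 passed the test, where 7.37% of all tested genes rose and 5.05% fell. CPT1A, the carnitine palmitoyltransferase of the outer membrane that controls entry, had 18.5, 23.2 and 20.1 array medians in resistant cells, against 12.1, 13.7 and 18.0 in parental cells (0.51 ± 0.18, adjusted p = 0.1). All resistant arrays were above the parental arrays, and without parental array 3 CPT1A rose (0.67, adjusted p = 0.00596). CRAT, the carnitine acetyltransferase of mitochondria and peroxisomes, had 8.91, 8.59 and 9.71 in resistant cells, against 13.1, 10.2 and 18.7 in parental cells (-0.59 ± 0.21, adjusted p = 0.111). The groups did not overlap there either, in the opposite direction. Without parental array 2, the parental array nearest to the resistant ones, CRAT fell (-0.79, adjusted p = 0.0483), as did 2.85% of all tested genes. With any other array left out CRAT did not pass the test. CPT2, the palmitoyltransferase of the inner membrane, gave -0.19 ± 0.16, and CROT, which makes carnitine esters in peroxisomes, gave 0.22 ± 0.34 with overlapping groups. Among the acyl-CoA synthetases ACSL5 gave 0.05 ± 0.12. ACSL1 had 25.7, 17.8 and 24.5 in resistant cells, against 18.9, 21.6 and 21.7 in parental cells (0.11 ± 0.17, adjusted p = 0.704), while its second probe set rose 1.51-fold (0.60 ± 0.16, adjusted p = 0.039), as did 5.75% of all tested probe sets (4.27% fell). ACSL4, which prefers arachidonic acid, had 4.50, 3.93 and 6.18 in resistant cells, against 5.43, 9.84 and 5.88 in parental cells (-0.51 ± 0.26, adjusted p = 0.244), and its other tested probe set gave 0.97 ± 0.44.

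Acyl-CoA dehydrogenases take the first electrons from fatty acids, each for its own chain length, and 1 of 6 tested rose (7.37% of all tested genes). ACADVL, the enzyme for very long chains, had 44.1, 44.1 and 54.1 array medians in resistant cells, against 26.5, 21.2 and 27.9 in parental cells. It rose 1.89-fold (0.92 ± 0.15, adjusted p = 0.00608), and its lowest resistant array stood well above its highest parental array. ACADS, the enzyme for short chains, had 2.41, 2.30 and 3.46 in resistant cells, against 0.784, 2.88 and 1.05 in parental cells (1.00 ± 0.45, adjusted p = 0.186). Parental array 2 overlapped the resistant arrays, and without it ACADS rose (1.56, adjusted p = 0.0343), as did 4.61% of all tested genes. Leaving out the overlapping array widens the change by construction, and with any other array left out ACADS did not pass the test. ACADM, for medium chains, gave 0.30 ± 0.16, ACAD9, which also serves the assembly of respiratory complex I, gave 0.52 ± 0.23, and ACAD8, of valine breakdown, gave 0.24 ± 0.18. Without parental array 3 ACAD9 (0.81, adjusted p = 0.00153) and ACADM (0.42, adjusted p = 0.0464) rose. ACADSB, for short branched chains, gave -0.55 ± 0.54 at a signal near the array median. ACADL was between 0.035 and 0.577 array medians on all 6 arrays and was not tested.

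Electron transfer flavoprotein collects the electrons of these dehydrogenases, and here 2 of 3 tested genes rose (7.37% of all tested genes). ETFB, its beta subunit, had 85.7, 84.7 and 88.5 array medians in resistant cells, against 26.9, 20.3 and 55.5 in parental cells. It rose 2.77-fold (1.47 ± 0.30, adjusted p = 0.0143), or 3.69-fold without parental array 3, which lay between the groups. ETFDH, which passes the electrons on to ubiquinone, had 3.71, 4.43 and 3.75 in resistant cells, against 2.13, 1.58 and 2.77 in parental cells and rose 1.88-fold (0.91 ± 0.25, adjusted p = 0.047). A second probe set of ETFDH gave 0.68 ± 0.24 (adjusted p = 0.101). ETFA, the alpha subunit that pairs with ETFB, had 149.2, 138.5 and 150.0 in resistant cells, against 111.2, 102.4 and 141.1 in parental cells (0.32 ± 0.13, adjusted p = 0.153), and without parental array 3 it rose (0.45, adjusted p = 0.00441). The change of ETFA was thus smaller than that of ETFB on the log2 scale, a difference that was not itself tested. The call of ETFB was lost without any single resistant array or parental array 1 (highest adjusted p 0.0669), and that of ETFDH without any array but parental array 3 (highest adjusted p 0.171). ETFB also lost its call without the intensity trend (adjusted p = 0.0706) and by the methods' t-test (0.182). ETFDH lay near the threshold and also lost its call with quantile normalization (adjusted p = 0.0583), deposited values left unscaled (0.0572), no filter (0.0984), the minimum raised to 3 array medians (0.0516), no intensity trend (0.0766), a replicate block (0.0751) and the methods' t-test (0.167).

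None of the 5 tested mitochondrial enzymes of hydration, second dehydrogenation and thiolysis passed the test (7.37% of all tested genes rose and 5.05% fell). In resistant cells 1 was higher and 1 lower without overlap, as were 20.2% and 15.2% of all tested genes. HADHA and HADHB are the alpha and beta subunits of the mitochondrial trifunctional protein, which works on long chains, and their neighbouring genes share a bidirectional promoter. HADHA had 33.4, 32.3 and 32.0 array medians in resistant cells, against 29.2, 22.8 and 30.6 in parental cells (0.25 ± 0.15, adjusted p = 0.302). HADHB had 38.5, 42.8 and 44.1 in resistant cells, against 55.5, 53.2 and 49.4 in parental cells (-0.33 ± 0.12, adjusted p = 0.111). The subunits therefore differed in sign, with neither past the test, and without parental array 3 HADHB fell (-0.38, adjusted p = 0.026). The other 3 were ACAA2, the thiolase (0.46 ± 0.21), HADH, for medium and short chains (0.16 ± 0.18), and ECHS1, the short-chain hydratase (-0.03 ± 0.12). ACAA2 had 30.3, 33.6 and 34.3 in resistant cells, against 19.8, 19.7 and 34.3 in parental cells, so that parental array 3 matched the highest resistant array, and without that array ACAA2 rose 1.65-fold (adjusted p = 0.00124).

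Unsaturated fatty acids need auxiliary isomerases and reductases, of which 1 of 4 rose (7.37% of all tested genes). ECI2, an enoyl-CoA isomerase found in peroxisomes and mitochondria, had 3.24, 2.44 and 4.45 array medians in resistant cells, against 1.95, 0.977 and 0.805 in parental cells. It rose 2.85-fold (1.51 ± 0.38, adjusted p = 0.0342), at a signal close to the array median in parental cells. Its call was lost without any single resistant array or parental array 2 (highest adjusted p 0.143) and without a filter (0.0609). The same held without the intensity trend (0.0750) and by the methods' t-test (0.190). DECR1, the mitochondrial dienoyl-CoA reductase, lay just outside the threshold with 10.2, 11.7 and 12.7 in resistant cells, against 8.04, 8.32 and 6.33 in parental cells (0.61 ± 0.17, adjusted p = 0.0516), and without parental array 3 it rose (0.49, adjusted p = 0.0368). Its peroxisomal counterpart DECR2 had 11.99, 6.89 and 6.31 in resistant cells, against 5.91, 4.16 and 4.76 in parental cells (0.72 ± 0.26, adjusted p = 0.104). Resistant arrays were above all parental arrays for both reductases, as for 20.2% of all tested genes. ECI1, the mitochondrial isomerase, gave 0.002 ± 0.22, with parental arrays spread from 28.6 to 55.5.

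**Figure D2:**
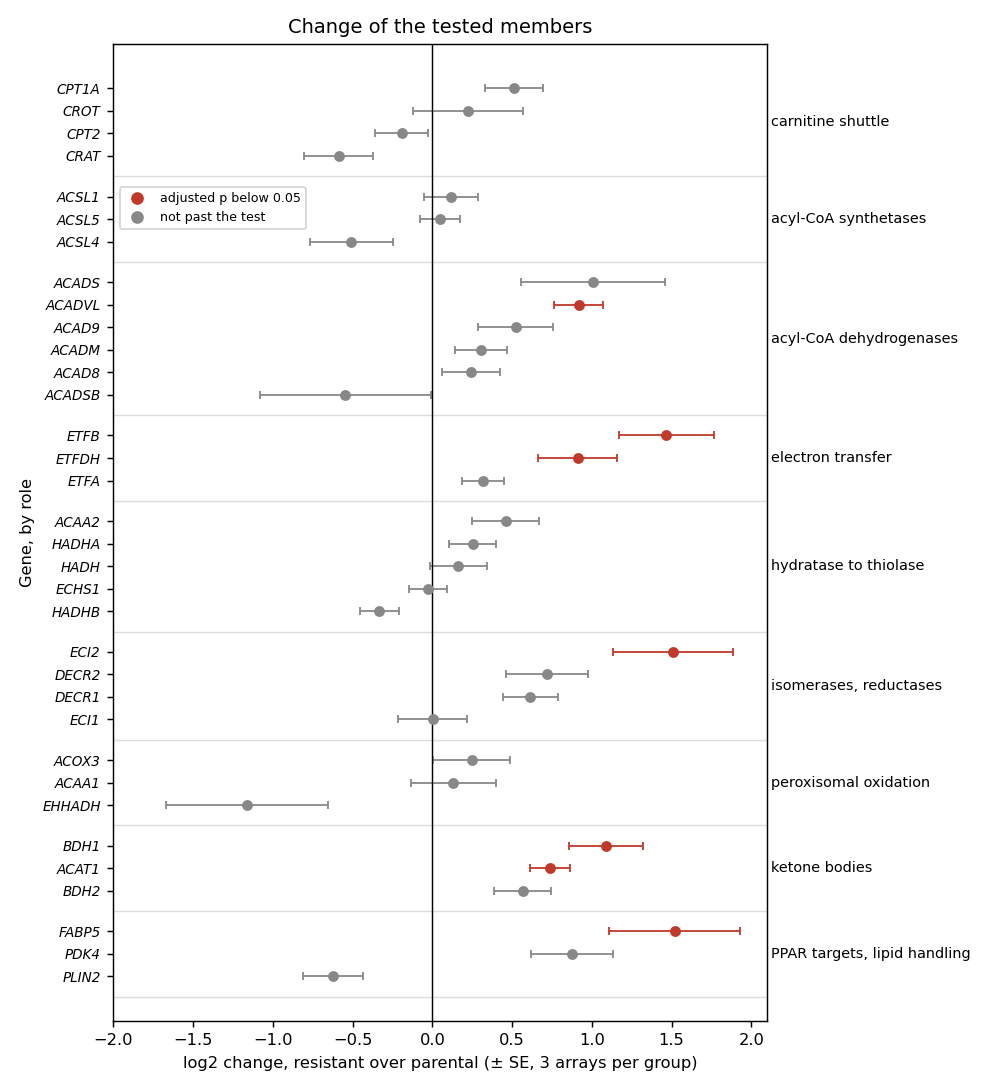
Log2 change (resistant over parental, ± moderated SE of limma, 3 arrays per group) of the 34 tested members, grouped by their role in the pathway. Members at adjusted p below 0.05 are in red and the others in grey. The 7 red points lie between 0.74 (ACAT1) and 1.52 (FABP5), and the lowest change is that of EHHADH (-1.16).

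Each of the 3 tested ketone body enzymes had all resistant arrays above all parental arrays (20.2% of all tested genes did), and 2 rose (7.37% of all tested genes). ACAT1, the mitochondrial acetoacetyl-CoA thiolase that acts in the making and the use of ketone bodies and in isoleucine breakdown, had 60.4, 59.1 and 61.5 array medians in resistant cells, against 36.7, 32.3 and 39.9 in parental cells. It rose 1.67-fold (0.74 ± 0.13, adjusted p = 0.00655). BDH1, which interconverts acetoacetate and beta-hydroxybutyrate in mitochondria, had 9.74, 10.1 and 9.33 in resistant cells, against 4.11, 3.50 and 6.61 in parental cells. It rose 2.13-fold (1.09 ± 0.23, adjusted p = 0.0182), although the call was lost without any array but parental array 3 (highest adjusted p 0.0814). The call of BDH1 was also lost without the intensity trend (0.0616) and by the methods' t-test (0.152). BDH2, a cytosolic relative, had 9.21, 7.01 and 9.49 in resistant cells, against 6.25, 5.56 and 5.42 in parental cells (0.57 ± 0.18, adjusted p = 0.0727). OXCT1, the transferase that starts the use of ketone bodies, was not tested, with 0.358 to 1.03 in resistant cells, against 0.310 to 0.664 in parental cells.

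Among the PPAR targets and lipid handling genes 1 of 3 tested rose (7.37% of all tested genes). FABP5, which binds fatty acids in the cytosol and can deliver them to PPARD, had 136.1, 125.0 and 134.4 array medians in resistant cells, against 32.2, 27.6 and 108.8 in parental cells. It rose 2.87-fold (1.52 ± 0.41, adjusted p = 0.0449), with parental array 3 close to the resistant arrays, and 4.42-fold without that array. The call was lost without any other array (highest adjusted p 0.145). FABP5 has processed pseudogenes with similar sequences and its probe set is not specific to 1 transcript, so its signal is uncertain in that respect. Among the risen genes, the probe sets of ECI2 and BDH1 are also not specific to 1 transcript. The call of FABP5 was also lost with quantile normalization (adjusted p = 0.0549), without a filter (adjusted p = 0.0575), without the intensity trend (0.132) and by the methods' t-test (0.270). PDK4, the pyruvate dehydrogenase kinase that spares glucose when fat is burned and a classic PPAR target, had 2.77, 3.39 and 4.50 in resistant cells, against 1.56, 1.97 and 2.22 in parental cells (0.88 ± 0.26, adjusted p = 0.0606). PLIN2, the lipid droplet coat protein, had 4.94, 4.52 and 3.76 in resistant cells, against 5.79, 6.92 and 7.66 in parental cells (-0.62 ± 0.19, adjusted p = 0.064). The groups of both were apart but in opposite directions, and without parental array 3 PDK4 rose (0.99, adjusted p = 0.0226). The lipase inhibitor ANGPTL4 lay between 0.148 and 0.339, and the fatty acid receptor CD36 between 0.053 and 0.748, on all 6 arrays.

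Mitochondrial and peroxisomal enzymes were then set side by side. Of 20 tested mitochondrial enzymes of oxidation and ketone body metabolism 5 rose and 0 fell (9 and 1 at an unadjusted p below 0.05 in limma), with a median change of 0.39. Of 5 tested peroxisomal enzymes 0 rose and 0 fell (1 and 1 at an unadjusted p), with a median of 0.22. Over all 11849 tested genes 7.37% rose and 5.05% fell (2051 and 1597 genes at an unadjusted p). At these shares 0 of 5 does not set the peroxisomal enzymes apart from all tested genes. ECI2, which rose, and CRAT occur in both compartments and were left out of either class. With so few peroxisomal enzymes the 0.17 between the medians is a description with no test, and it was 0.40 without resistant array 1, 0.38 without parental array 1, 0.025 without parental array 2 and -0.012 without parental array 3. EHHADH averaged 0.590 array medians in resistant cells and 1.41 in parental cells, so it passed the filter only through the parental arrays, and it was below the filter when parental array 2 or 3 was left out. With EHHADH left out of the class the difference was 0.15. With each gene centred on its own mean over the 6 arrays, the mitochondrial enzymes averaged 0.18, 0.13 and 0.32 on resistant arrays, against -0.28, -0.34 and -0.01 on parental arrays. The peroxisomal enzymes averaged 0.25, -0.17 and -0.04 on resistant arrays, against -0.26, -0.01 and 0.22 on parental arrays. Resistant and parental arrays were thus apart for the mitochondrial mean and overlapped for the peroxisomal mean. Over the 4 peroxisomal enzymes other than EHHADH the averages were 0.43, -0.05 and 0.11 on resistant arrays, against -0.30, -0.31 and 0.11 on parental arrays. The arrays still overlapped, while the group means (0.17 for resistant and -0.17 for parental arrays) came close to those of the mitochondrial enzymes (0.21 and -0.21). In the wider list of other pathway genes, 0 of 16 tested genes around mitochondrial oxidation rose (2 at an unadjusted p below 0.05 in limma, median 0.23). Of 26 tested peroxisomal genes 0 rose and 1 fell (8 and 3 at an unadjusted p, median 0.14). These groups are not enzymes of oxidation alone, since the first also holds ACACB, UCP2 and PDK genes and the second PEX genes.

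Within the peroxisomal class, EHHADH, the bifunctional hydratase and dehydrogenase and a known PPAR target in liver, had 0.640, 0.557 and 0.574 array medians in resistant cells, against 0.811, 2.03 and 1.39 in parental cells (-1.16 ± 0.51, adjusted p = 0.176). Its resistant arrays all lay below its parental arrays, at signals around or under the array median. ACOX3, an oxidase of branched chains, had 2.68, 2.27 and 2.43 in resistant cells, against 2.53, 1.90 and 1.85 in parental cells (0.25 ± 0.24, adjusted p = 0.551). ACAA1, the peroxisomal thiolase, had 22.3, 21.0 and 22.4 in resistant cells, against 15.6, 15.4 and 33.3 in parental cells (0.13 ± 0.27, adjusted p = 0.787). Here parental array 3 was the highest of all arrays, and without it ACAA1 rose (0.50, adjusted p = 0.0121). ACOX2, the oxidase of bile acid precursors, lay below the array median on every array.

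**Figure D3:**
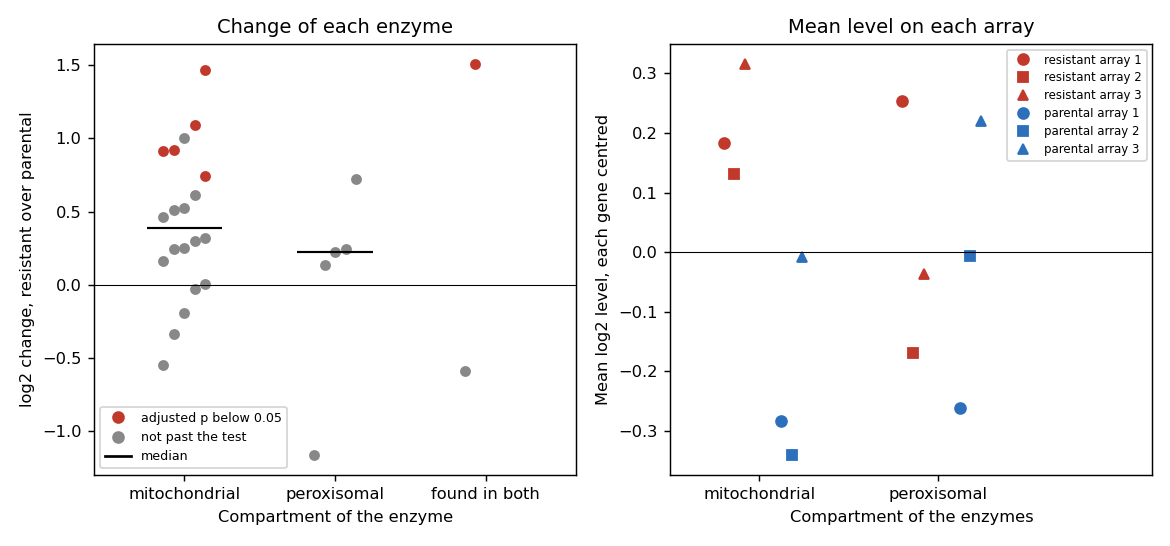
Left, log2 change (resistant over parental) of each tested enzyme by compartment, with enzymes past the test in red and medians as bars. Right, mean log2 level of the 20 mitochondrial and 5 peroxisomal enzymes on each array, each gene centred on its own mean. For the mitochondrial enzymes the resistant arrays (red, 0.13 to 0.32) lie above the parental arrays (blue, -0.34 to -0.01). For the peroxisomal enzymes the groups overlap, with resistant array 1 highest (0.25).

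Probe sets of a member did not always move together. Of the 15 members with more than 1 tested probe set, 6 had changes of both signs, namely CROT, ACSL4, HADHA, ACAA2, ACAA1 and PLIN2. The brightest probe set of HADHA gave 0.25, and its others gave 0.18 and -0.03. For ACAA2 the probe set specific to it gave -0.17 ± 0.37, against 0.46 ± 0.21 for the brightest. For PLIN2 the second probe set shares probes with other transcripts and gave 0.84 ± 0.77, against -0.62 ± 0.19 for the brightest. Of the risen genes, only ETFDH had a second tested probe set.

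Other genes of these pathways were listed, 114 in all, of which 77 were tested. Of these 4 rose and 1 fell (23 and 5 at an unadjusted p below 0.05 in limma), with a median change of 0.22. The 5.19% risen compare with 7.37% of all 11849 tested genes, while 5.05% of those fell (2051 and 1597 genes at an unadjusted p). SLC16A7, a monocarboxylate transporter that can carry ketone bodies and pyruvate, had 7.65, 7.42 and 5.61 array medians in resistant cells, against 2.91, 3.98 and 3.58 in parental cells and rose 1.97-fold (0.98 ± 0.20, adjusted p = 0.0164). ABHD5, the activator of the triglyceride lipase of lipid droplets, rose 1.81-fold (0.86 ± 0.20, adjusted p = 0.0286). DGAT2, which makes triglycerides, rose 1.61-fold (0.69 ± 0.15, adjusted p = 0.0222), and ACSM3, a medium-chain acyl-CoA synthetase, rose 1.51-fold (0.59 ± 0.15, adjusted p = 0.037). Genes of lipolysis and of triglyceride synthesis were thus both among the 4. NUDT19, a peroxisomal hydrolase of coenzyme A known from mouse, had 27.5, 28.4 and 31.8 in resistant cells, against 50.8, 66.0 and 48.3 in parental cells and fell 1.87-fold (-0.90 ± 0.15, adjusted p = 0.00604). Without parental array 3 the counts were 23 and 7, and without resistant arrays 1, 2 and 3 they were 0, 0 and 1 risen. NUDT19 fell with each of the 6 arrays left out.

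The receptors themselves did not pass the test. PPARA, which drives fat oxidation in liver, had 9.71, 9.22 and 11.1 array medians in resistant cells, against 11.4, 10.02 and 8.76 in parental cells (-0.002 ± 0.17, adjusted p = 0.995). PPARG, a receptor of adipocytes and colon epithelium, gave -0.09 ± 0.15 and RXRA, the common partner, -0.17 ± 0.16. PPARD had 9.40, 8.41 and 11.6 in resistant cells, against 20.6, 17.5 and 10.1 in parental cells (-0.66 ± 0.26, adjusted p = 0.129). Parental array 3 fell among the resistant arrays for PPARD, which was lower without that array (-0.97, adjusted p = 0.00175) and with all its tested probe sets averaged (-1.16, adjusted p = 0.0273). PPARGC1A, a coactivator of mitochondrial genes, was below the array median on all arrays, with 0.333, 0.792 and 0.774 in resistant cells, against 0.0721, 0.0391 and 0.0265 in parental cells, and was not tested.

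**Figure D4:**
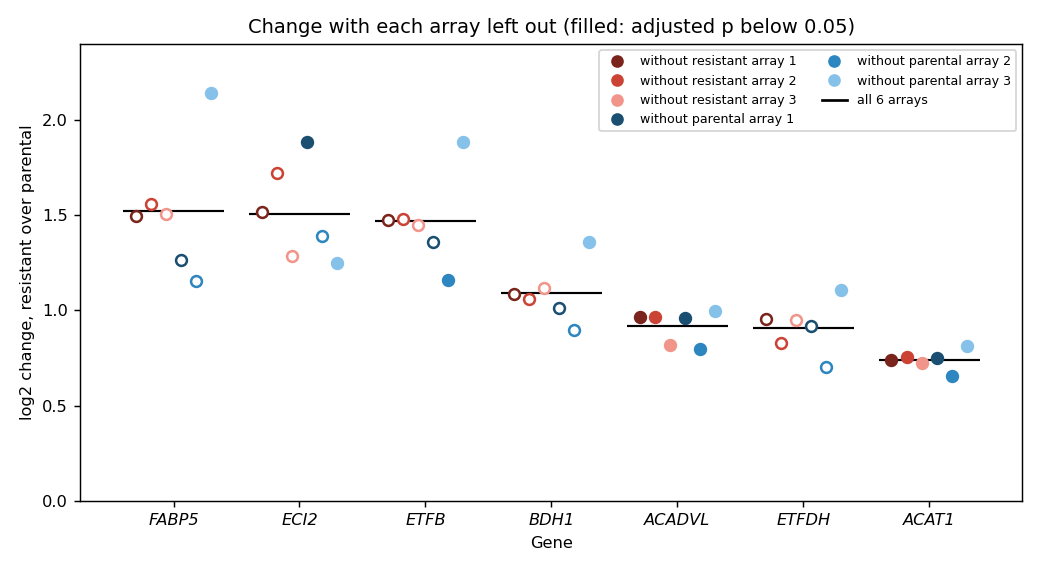
Log2 change (resistant over parental) of the 7 risen members with each array left out in turn (filled markers, adjusted p below 0.05) and with all 6 arrays (black bars). ACADVL and ACAT1 are filled throughout, and leaving out parental array 3 gives filled markers for all 7, with 2.14 for FABP5 and 1.88 for ETFB.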

How the data were processed

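Values of 6 arrays were used, 3 of resistant and 3 of parental cells. The authors deposited a linear intensity for each probe set on each array, made with MAS5 according to the submitters' processing notes (its version and target intensity were not given in the sources used here). Detection calls are not part of the table. The 62 control probe sets were left out, exact zeros were set to 0.05 signal units, and each intensity was divided by its array median, as in the study's first normalization step, and log2 transformed. Array medians were 10.6 to 12.8 signal units. Probe sets averaging 1 array median or more over all arrays were tested two-sided with limma (version 3.58.1, R 4.3.3, eBayes with trend) and Benjamini-Hochberg adjustment over 26563 probe sets. The fit was tested on simulated data. No exact permutation test was used, since with 3 arrays a group its smallest p is 0.1. Gene names came from the platform annotation, updated to RefSeq (GRCh38.p14): 41091 of 54613 probe sets had 1 symbol (41037 matched), 1801 several and 11721 were not named. Members and lists were chosen with earlier results of these data known. Named with per-array values were members past the test and, in roles with fewer than 2 of these, the 2 with the largest change, the called genes of the wider list, and PPAR genes. Other members and the motifs TGACNNNGC and GGGCGG were named after their values were seen. The alternatives concerned scaling (quantile, or the deposited values as they are), low signals (unfiltered, a minimum of 3 array medians, a floor at the 25th percentile, an added 0.5 array medians), the test (eBayes without trend, a replicate block, the methods' t-test, a 2-fold threshold), the probe set or compartment chosen, and single arrays left out. The test named after the methods used the filter and scaling given here. The study's control strength filter and error model were not applied, so its outcome is not that of the study's own analysis. Leaving EHHADH out of the peroxisomal enzymes was chosen after seeing the data.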

Additional observations from a re-analysis of the deposited data

How the results depend on the processing

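The count of 7 risen members was 2 to 15 with single arrays left out and 4 without the filter, after leaving out probe sets not specific to 1 transcript (23 members tested) or with a 2-fold threshold, 2 without the intensity trend and 0 by the methods' t-test. Of all tested genes, 3.33% rose without the filter, 7.17% with specific probe sets, 3.37% with the 2-fold threshold, 3.1% without the trend and 1.01% by the methods' t-test, so that calls over all genes were also fewer except with specific probe sets, where the share was close to the 7.37% reported. Members fallen ranged from 0 to 1 with single arrays left out. For the mitochondrial enzymes, 2 to 11 rose and 0 to 1 fell with single arrays left out, while 2 rose without the trend or with the 2-fold threshold and 0 by the methods' t-test. Of the peroxisomal enzymes 0 to 1 rose with single arrays left out, and 1 with CRAT and ECI2 counted among them. The median change of the members was 0.24 to 0.50, and the mitochondrial minus the peroxisomal median -0.012 to 0.40, with single arrays left out. In the wider list 0 to 23 rose and 1 to 7 fell with single arrays left out, 2 rose with no further scaling, 7 with the filter at 3 array medians, and 0 rose and 0 fell by the methods' t-test or with the 2-fold threshold, and 2 fell with all probe sets averaged. The cause of these shifts was not tested, beyond fewer members or arrays in some. With the replicate number as a block 6 members rose and 0 fell, ETFDH giving adjusted p = 0.0751. In the wider list 4 rose and 1 fell with the block, where DGAT2 (adjusted p = 0.0536) and ACSM3 (0.0725) lost their calls. The replicate numbers did not pair the arrays, whose deviations from the group means correlated at -0.018, -0.022 and -0.016 for equal numbers. Over all alternatives, 150 of 191 summary values stayed close to the reported one and 41 moved, and of 471 values of single named genes 372 kept direction and call, 82 lost the call, 8 gained it and 9 turned sign with no call. No named gene that passed the test changed direction under any alternative. EHHADH and ECI2, at signals near the array median, had SEs of 0.51 and 0.38 with 3 arrays a group.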
